A study of Homo sapiens with 8 samples.

Results

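TXNIP, ARRDC3 and ARRDC4 were examined in 2 prostate cancer cell lines exposed to hydrogen peroxide, with and without forced expression of PAGE4. These 3 genes were taken by symbol from the 58828 genes of the count tables, and all 3 passed the filter on low counts that left 19784 genes for testing. Each of the 8 libraries was a condition of its own. 22RV1 and DU145 cells carried either an empty vector or PAGE4, a cancer testis antigen of the prostate, and received either H2O2 or PBS for 12 h. The labels and methods give the H2O2 dose as 200 mM, while the study names lower doses for some other assays, so this value is uncertain. Both constructs were doxycycline-inducible lentiviral vectors, so the vector cells shared the backbone and the inducing drug with the PAGE4 cells. 22RV1 cells carry the androgen receptor and DU145 cells do not depend on it. There was 1 library per condition and nothing in the labels names separate cultures, so the p-values below measure the spread between the libraries of these cells only. The comparisons asked how the genes differ between the lines, how they respond to oxidative stress and whether PAGE4 alters either.

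TXNIP, ARRDC3 and ARRDC4 encode alpha-arrestins, adaptor proteins that bind membrane proteins and recruit ubiquitin ligases of the NEDD4 family to them. TXNIP, the thioredoxin-interacting protein, also binds reduced thioredoxin and blocks its activity, and it promotes the removal of the glucose transporter GLUT1 from the cell surface. ARRDC4 is a close relative of TXNIP that also restrains glucose uptake, and both genes are classic targets of MondoA (MLXIP) and ChREBP (MLXIPL), transcription factors that pair with MLX and sense glucose phosphates. ARRDC3 is known for its part in the trafficking of integrins and as a tumour suppressor in breast cancer.

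The promoters are printed because TXNIP and ARRDC4 are known targets of factors that bind E-box elements, so a reader can compare these elements among the 3 genes. In GRCh38, TXNIP lies on the minus strand at chr1:145992435-145996579, with 5 exon blocks after overlapping exons were merged. ARRDC3 lies on the minus strand at chr5:91368631-91383317 with 10 such merged blocks. ARRDC4 lies on the plus strand at chr15:97960703-97973833 with 8 such merged blocks. A count of merged blocks need not equal the number of exons in any single transcript. RefSeq start sites on GRCh38.p14 were found for 3 of 3 genes, 5 sites in all. The 250 bases upstream of the first TXNIP site, of both ARRDC3 sites and of the ARRDC4 site are printed 5′ to 3′ on the gene's own strand. They lie at chr1:145996580-145996829, chr5:91383318-91383567, chr5:91380098-91380347 and chr15:97960453-97960702, in that order. Capitals mark the motifs searched for on both strands.
TXNIP: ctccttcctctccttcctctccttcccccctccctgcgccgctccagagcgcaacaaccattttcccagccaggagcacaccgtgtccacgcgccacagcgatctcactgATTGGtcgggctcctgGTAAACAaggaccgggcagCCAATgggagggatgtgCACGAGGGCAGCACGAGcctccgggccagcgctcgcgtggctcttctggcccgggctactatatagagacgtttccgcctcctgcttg
ARRDC3 site 1: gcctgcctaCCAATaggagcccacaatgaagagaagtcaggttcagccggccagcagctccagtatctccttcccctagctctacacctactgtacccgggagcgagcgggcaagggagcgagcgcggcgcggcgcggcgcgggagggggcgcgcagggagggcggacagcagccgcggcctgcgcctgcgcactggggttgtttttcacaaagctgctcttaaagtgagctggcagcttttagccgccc
ARRDC3 site 2: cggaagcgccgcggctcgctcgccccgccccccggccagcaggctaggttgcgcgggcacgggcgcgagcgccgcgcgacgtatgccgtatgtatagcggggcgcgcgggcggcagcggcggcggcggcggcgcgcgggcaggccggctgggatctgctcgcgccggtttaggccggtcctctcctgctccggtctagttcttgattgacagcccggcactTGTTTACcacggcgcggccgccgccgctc
ARRDC4: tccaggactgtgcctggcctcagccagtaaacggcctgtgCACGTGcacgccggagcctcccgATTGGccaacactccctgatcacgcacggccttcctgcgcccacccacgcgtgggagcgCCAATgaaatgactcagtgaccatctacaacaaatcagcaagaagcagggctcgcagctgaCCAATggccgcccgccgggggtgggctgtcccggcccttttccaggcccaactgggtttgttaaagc

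The TXNIP window held a pair of E-box-like elements, CACGNG and CACGNG with 5 bases between them, at bases -88 to -72 from the start site. This is the form of the carbohydrate response element that MondoA and ChREBP are known to bind, and 16 of 35116 RefSeq windows of the same length (0.0456%) held it. The letters were chosen after the TXNIP promoter had been read. The same TXNIP window held CCAAT, the NF-Y motif, on the minus strand at -140 to -136 and on the plus strand at -105 to -101, and GTAAACA, a FOXO motif, at -124 to -118. CCAAT was found in 32.0% of windows and GTAAACA in 2.98%. ARRDC4 held a canonical E-box, CACGTG, at -210 to -205 (6.34% of windows) and 3 copies of CCAAT. ARRDC3 held CCAAT at -241 to -237 of site 1 and the FOXO motif on the minus strand at -29 to -23 of site 2. TGACNNNGC, the core of the antioxidant response element, occurred in 10.9% of windows and in none of the 5 windows of these genes. The second TXNIP window, not printed, held none of the 5 motifs. A match is a string of letters in this window and not a measured binding site.

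The libraries held 25482984 to 43310401 counts. PAGE4 had 1001 to 1489 counts in the 4 PAGE4 libraries and 0 or 1 in the 4 vector libraries. Of 7 marker genes of 22RV1 cells, 7 were higher in every 22RV1 library than in any DU145 library, and their summed level was 758 to 2180 CPM (counts scaled by TMM to a common library total) against 35.3 to 39.6. KLK3, which encodes the androgen-driven prostate-specific antigen, lay at 3.68 to 24.0 CPM in 22RV1 cells and at or near 0 in DU145 cells. Of 6 DU145 markers, VIM, CAV1 and S100A2 were higher in every DU145 library, CD44 and LGALS1 overlapped, and KRT5 was near 0 in both lines. Differences between the lines were common, with 63.2% of all genes called by edgeR's quasi-likelihood test. Mitochondrial transcripts took 8.97 to 9.19% of counts in the H2O2 libraries of 22RV1 cells and 10.2 to 12.3% in the PBS libraries. In DU145 cells these shares were 10.9 to 11.2% and 14.6 to 16.5%. After H2O2, 7 of 7 of the 22RV1 markers also fell in 22RV1 cells, beside 32.1% of all genes called in either direction. These shifts accompany every H2O2 result below and their part in it was not tested. In bulk RNA, fewer cells expressing a gene and less RNA per cell cannot be told apart.

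TXNIP was an abundant transcript in 22RV1 cells and a modest one in DU145 cells. Its level in 22RV1 cells was 230 CPM in the vector library with PBS and 221 CPM with H2O2. It was 247 CPM in the PAGE4 library with PBS and 268 CPM with H2O2. The DU145 vector libraries had 18.9 CPM with PBS and 26.5 CPM with H2O2. The DU145 PAGE4 libraries had 17.6 CPM with PBS and 46.8 CPM with H2O2. The lines did not overlap, and within each line the highest library was the one with both PAGE4 and H2O2. Neighbours in this order overlapped in their 95% counting intervals only for the vector libraries of 22RV1 cells and for the PBS libraries of DU145 cells. Per kilobase of exon, between 2.16 and 2.84% of the 13761 protein-coding genes tested lay above TXNIP in 22RV1 cells, against 23.3 to 46.5% in DU145 cells.

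**Figure D1:**
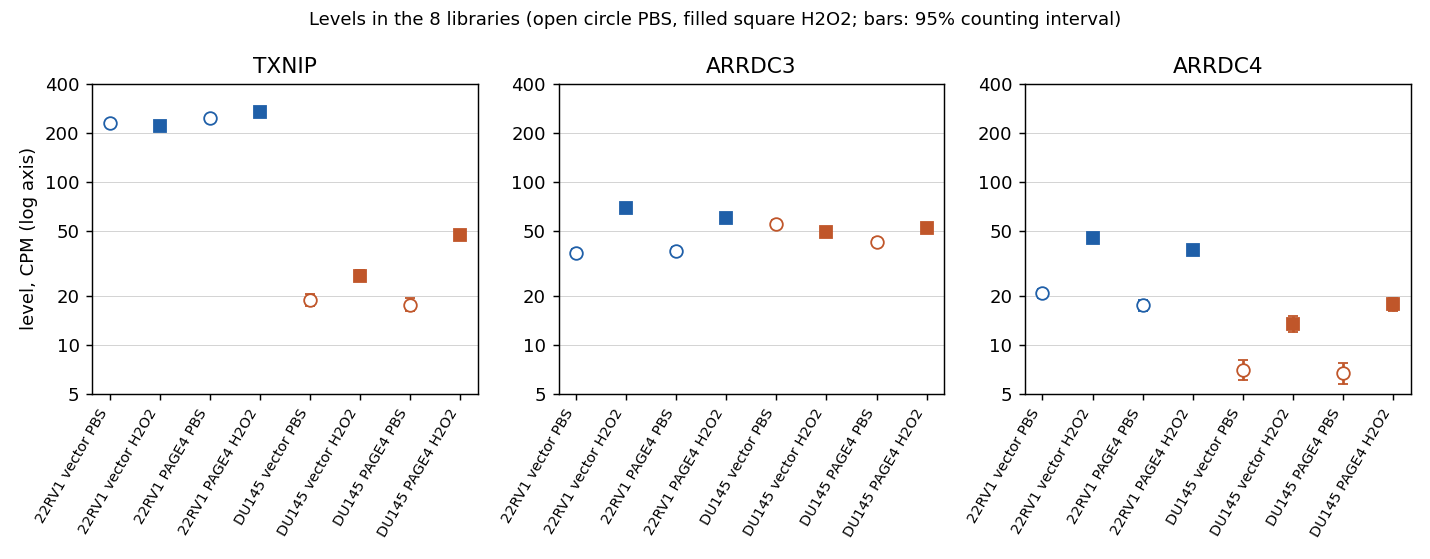
Level of TXNIP, ARRDC3 and ARRDC4 in each of the 8 libraries, in CPM on a log axis, with 95% counting intervals as bars. TXNIP lies at 221 to 268 CPM in 22RV1 and 17.6 to 46.8 CPM in DU145, ARRDC3 overlaps between the lines, and ARRDC4 is higher with H2O2 than with PBS in every pair.

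ARRDC4 followed the same order of lines at lower levels. In 22RV1 cells it had 20.7 CPM in the vector library with PBS, 45.2 CPM with H2O2, 17.5 CPM in the PAGE4 library with PBS and 38.3 CPM with H2O2. In DU145 cells the same conditions gave 6.98, 13.4, 6.69 and 17.7 CPM. The H2O2 libraries of each line lay above both of its PBS libraries, and the DU145 PAGE4 library with H2O2 reached the level of the 22RV1 PBS libraries.

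ARRDC3 lacked such an order of lines. It had 36.5 CPM in the 22RV1 vector library with PBS, 69.2 CPM with H2O2, 37.6 CPM in the PAGE4 library with PBS and 60.3 CPM with H2O2. In DU145 cells these conditions gave 55.2, 49.0, 42.6 and 52.1 CPM. The DU145 libraries lay between the PBS and the H2O2 libraries of 22RV1 cells. The gene overlaps ARRDC3-AS1, an antisense lncRNA, over 2969 bp, 145 of them exonic. Whether reads were counted by strand was not stated, so reads there cannot be told apart, but ARRDC3-AS1 itself had 3 to 48 counts per library against 1153 to 2668 for ARRDC3.

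Between the lines, 2 of the 3 genes were lower in DU145 cells by edgeR's quasi-likelihood test over 4 pairs of libraries matched on construct and treatment, beside 63.2% of all genes called. TXNIP was 9.48-fold lower (log2 fold change -3.25, 95% interval -3.76 to -2.73, adjusted p = 1.34e-05). ARRDC4 was 2.75-fold lower (log2 fold change -1.46, -1.81 to -1.11, adjusted p = 0.000105). ARRDC3 differed by a log2 fold change of 0.02 (-0.40 to 0.43, adjusted p = 0.943), and this value was -0.18 when libraries were scaled by total counts. Lower and higher levels were common between these lines, so the share called says little about the arrestins as a group.

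The balance among the 3 transcripts differed between the lines. Levels per kilobase of exon put TXNIP at 4.41 to 9.10 times ARRDC3 in 22RV1 cells and at 0.475 to 1.24 times in DU145 cells. ARRDC3 stood at 1.25 to 1.75 times ARRDC4 in 22RV1 cells and 2.40 to 6.44 times in DU145 cells. Set against TXN, the thioredoxin that TXNIP inhibits, the level of TXNIP per kilobase was 0.429 to 0.730 times in 22RV1 cells and 0.0117 to 0.0319 times in DU145 cells. The highest ratio of TXNIP to TXN in each line belonged to the PAGE4 library with H2O2. TXN was itself 1.69 higher in DU145 cells on the log2 scale (adjusted p = 1.65e-05).

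The genes called as higher with H2O2 were ARRDC4 in both lines, TXNIP in DU145 cells and ARRDC3 in 22RV1 cells. The differences between the lines for TXNIP and ARRDC3 did not pass in every setting, as given below. Normalized counts of ARRDC4 with H2O2 were 2.21-fold those with PBS in 22RV1 vector cells and 2.18-fold in 22RV1 PAGE4 cells. They were 1.97-fold in DU145 vector cells and 2.74-fold in DU145 PAGE4 cells. All 4 pairs lay past 1.5-fold. Over the 4 pairs ARRDC4 rose by 1.15 on the log2 scale (SE 0.12, 95% interval 0.86 to 1.44, adjusted p = 0.00192, edgeR), or 2.22-fold, and 3.12% of tested genes had a higher log2 fold change. The rise was 1.13 in 22RV1 cells (adjusted p = 2.61e-06) and 1.17 in DU145 cells (adjusted p = 4.26e-06), and their difference was 0.04 (-0.38 to 0.47, adjusted p = 0.925).

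TXNIP rose with H2O2 in DU145 cells. Its normalized counts went from 480.7 to 692.6 in DU145 vector cells, a log2 ratio of 0.53 with a counting interval of 0.36 to 0.70. In DU145 PAGE4 cells they went from 446.6 to 1236.7, a log2 ratio of 1.47 (1.31 to 1.63) or 2.77-fold. In 22RV1 cells the log2 ratio was -0.04 (-0.09 to 0) with the vector and 0.11 (0.07 to 0.15) with PAGE4. The fitted change was 0.96 in DU145 cells (0.66 to 1.26, adjusted p = 1.74e-05, edgeR) and 0.03 in 22RV1 cells (-0.23 to 0.29, adjusted p = 0.885). That DU145 interval rests on a spread pooled over both lines, and both DU145 pairs (0.53 and 1.47) lie outside it. For the same change DESeq2's Wald test gave 0.98 (adjusted p = 0.0104). The response was larger in DU145 than in 22RV1 cells by 0.93 (0.54 to 1.32, adjusted p = 0.0014). That difference was lost with DESeq2's Wald test (0.96, adjusted p = 0.131) and without the DU145 PAGE4 pair (0.46, adjusted p = 0.0862), and the change in DU145 cells was 0.49 without that pair.

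ARRDC3 had the opposite distribution. In 22RV1 cells its normalized counts with H2O2 were 1.91-fold those with PBS in vector cells and 1.6-fold in PAGE4 cells. In DU145 cells the log2 ratio was -0.13 (counting interval -0.24 to -0.02) with the vector and 0.34 (0.23 to 0.46) with PAGE4. ARRDC3 rose by 0.80 in 22RV1 cells (0.57 to 1.04, adjusted p = 1.85e-05, edgeR), and in DU145 cells its fitted change was 0.06 (-0.18 to 0.30, adjusted p = 0.736). The DU145 PAGE4 pair (0.34) lies outside that last interval, which also rests on the pooled spread. The difference of -0.75 between the lines passed the test (-1.08 to -0.41, adjusted p = 0.00262). Without the DU145 vector pair it was -0.51 (adjusted p = 0.1).

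**Figure D2:**
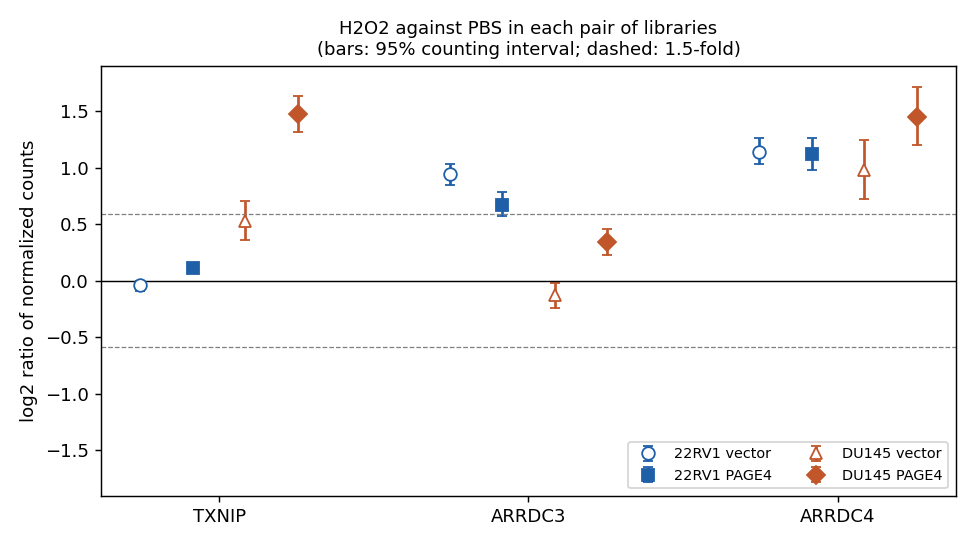
Log2 ratio of normalized counts, H2O2 against PBS, for each gene in the 4 pairs of libraries, with 95% counting intervals as bars and dashed lines at 1.5-fold. ARRDC4 lies past 1.5-fold in 4 pairs, ARRDC3 in both 22RV1 pairs and TXNIP in the DU145 PAGE4 pair (1.47).

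These calls stand beside a broad response to H2O2. In 22RV1 cells 2 of the 3 genes rose while 32.1% of all genes tested were called in either direction, 2999 of 19784 upward. In DU145 cells 2 of 3 rose beside 41.9% called in either direction, 3793 upward. For the response common to both lines 1 of 3 rose, ARRDC4, beside 23% of all genes in either direction, 2026 upward. TXNIP (0.47, -0.05 to 0.99, adjusted p = 0.166) and ARRDC3 (0.43, 0.03 to 0.84, adjusted p = 0.113) did not pass that test, and both passed when genes with low counts were kept (adjusted p = 0.00184 and 0.0152). ARRDC3 also passed without the DU145 vector pair (0.63, adjusted p = 0.046). Of the differences between lines 2 of 3 were called, beside 19.5%. Of the 12 gene-by-pair values, 7 lay past 1.5-fold, all of them upward. The share of all genes past that limit in either direction was 37.4% in 22RV1 vector and 30.5% in 22RV1 PAGE4 cells. It was 40.3% in DU145 vector and 41.3% in DU145 PAGE4 cells. With a 2-fold limit 4 values remained.

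PAGE4 itself moved none of the 3 genes past the test. The fitted PAGE4 effect over both lines was 0.28 for TXNIP (0.01 to 0.54, adjusted p = 0.607), -0.11 for ARRDC3 (-0.31 to 0.09, adjusted p = 0.815) and -0.05 for ARRDC4 (-0.32 to 0.23, adjusted p = 0.96). These 0 of 3 calls by edgeR stand beside 0.136% of all genes. TXNIP had an unadjusted p of 0.0418, and DESeq2's Wald test gave it an adjusted p of 0.636. With low genes kept, the edgeR fit called TXNIP (adjusted p = 0.0292). PAGE4 and H2O2 comparisons use the same 8 libraries, so they are not separate evidence.

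The single pairs were uneven for TXNIP. In 22RV1 cells the log2 ratio of PAGE4 to vector was 0.13 (counting interval 0.09 to 0.17) with PBS and 0.28 (0.24 to 0.33) with H2O2. In DU145 cells it was -0.11 (-0.29 to 0.08) with PBS and 0.84 (0.70 to 0.98) with H2O2, a 1.79-fold higher level. This was the 1 value of 12 past 1.5-fold, and past that limit lay 19.7% of all genes in 22RV1 cells with PBS, 23.2% in 22RV1 cells with H2O2, 15.3% in DU145 cells with PBS and 15.2% in DU145 cells with H2O2. In the last of these pairs 4.02% of genes had a higher ratio than TXNIP. No replicate of these libraries exists to check it. ARRDC3 ranged from -0.37 to 0.11 and ARRDC4 from -0.24 to 0.42 over the 4 pairs.

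**Figure D3:**
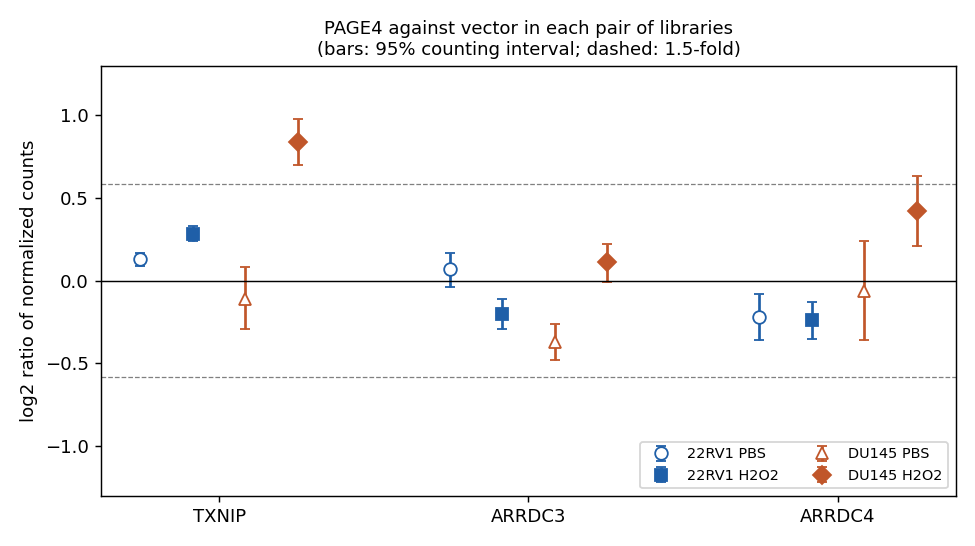
Log2 ratio of normalized counts, PAGE4 against vector, for each gene in the 4 pairs of libraries, with 95% counting intervals as bars and dashed lines at 1.5-fold. TXNIP in DU145 cells with H2O2 (0.84) is the single value past 1.5-fold.

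Within each line none of the 3 genes passed either. In 22RV1 cells the PAGE4 effect was 0.19 for TXNIP (adjusted p = 0.471, edgeR), -0.08 for ARRDC3 (0.799) and -0.24 for ARRDC4 (0.384), with unadjusted p of 0.0859 or more and 0 of 3 called beside 5.2% of all genes. In DU145 cells it was 0.39 for TXNIP (adjusted p = 0.401), -0.14 for ARRDC3 (0.838) and 0.20 for ARRDC4 (0.829), 0 of 3 called beside 0.323%. The DU145 value of TXNIP had an unadjusted p of 0.0127 and an adjusted p of 0.0162 with low genes kept, and it was -0.11 without the DU145 H2O2 pair. Leaving out a 22RV1 pair changed no DU145 library and gave 0.40 or 0.41, past the threshold (adjusted p = 0.0237 and 0.036, edgeR). Without the DU145 PBS pair, which left a lone DU145 pair, the value was 0.82. Between the lines the effects differed by 0.20 for TXNIP, -0.06 for ARRDC3 and 0.44 for ARRDC4 (adjusted p = 0.705, 0.937 and 0.338), 0 of 3 called beside 2.49%. ARRDC4 had an unadjusted p of 0.044 there. DESeq2's Wald test called none of the 3 genes in these comparisons.

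Whether PAGE4 altered the H2O2 response was tested over both lines. The response of PAGE4 cells exceeded that of vector cells by 0.55 for TXNIP (-0.52 to 1.62), 0.11 for ARRDC3 (-0.84 to 1.06) and 0.23 for ARRDC4 (-0.46 to 0.91). edgeR gave each an adjusted p of 1, and 0 of 3 were called beside 0% of all genes, with 52 genes at an unadjusted p under 0.05 and 0 called by DESeq2's Wald test. All 3 intervals include no difference, and those of TXNIP and ARRDC3 also include more than a doubling. The fit had no term for a response that differs between the lines, so such differences, called for 19.5% of all genes, counted as spread. The 0 calls therefore cannot show whether PAGE4 altered the response. By counting error alone, the DU145 responses differed between constructs by 0.94 (0.72 to 1.17) for TXNIP, 0.48 (0.32 to 0.63) for ARRDC3 and 0.48 (0.12 to 0.83) for ARRDC4. The 22RV1 responses differed by 0.15 (0.10 to 0.21), -0.26 (-0.40 to -0.13) and -0.02 (-0.20 to 0.16). These values compare single libraries and carry no replicate check.

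Other arrestin relatives moved apart from one another. Of 10 listed, 8 were tested. For H2O2 over both lines 1 rose and 2 fell, with a median log2 fold change of -0.30, beside 23% called and a median of -0.04 for all genes. ARRDC2, a further alpha-arrestin, had 19.1 and 42.1 CPM in 22RV1 vector cells with PBS and H2O2, and 27.2 and 53.5 CPM in DU145 vector cells. It rose by 0.91 (adjusted p = 0.00329, edgeR), with 0.89 in 22RV1 and 0.93 in DU145 cells. ARRDC1, which drives vesicle budding at the plasma membrane, fell by 0.39 (adjusted p = 0.0261), and VPS26B, a retromer subunit with an arrestin fold, fell by 0.53 (adjusted p = 0.0158). Of the beta-arrestins, which desensitise G-protein-coupled receptors, ARRB1 fell by 1.49 in DU145 cells (adjusted p = 4.73e-07) and its value in 22RV1 cells was -0.25 (adjusted p = 0.216). This difference between lines passed the test (-1.24, adjusted p = 0.000495). ARRB2 fell by 0.36 in 22RV1 cells (adjusted p = 0.00954), and its value in DU145 cells was -0.21 (adjusted p = 0.103).

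In the thioredoxin system, 1 of 10 tested genes rose and 2 fell over both lines (median -0.17, beside 23% called and a median of -0.04 for all genes). The log2 fold change was lower in DU145 than in 22RV1 cells past the test for 4 of 10, beside 19.5% of all genes with a difference in either direction. TXNRD1, the cytosolic reductase that recharges thioredoxin, had 259 and 921 CPM in 22RV1 vector cells with PBS and H2O2 and 2560 and 2800 CPM in DU145 vector cells. It rose by 1.66 in 22RV1 cells (adjusted p = 1.53e-11) and by 0.21 in DU145 cells (adjusted p = 0.0327), a difference of -1.45 (adjusted p = 1.76e-08). TXN fell by 0.23 in 22RV1 cells (adjusted p = 0.0221), and its value in DU145 cells was -0.02 (adjusted p = 0.855). TXNRD2, the mitochondrial reductase, fell by 0.72 over both lines, TXNRD3 fell by 0.54 and TXNL1 rose by 0.44 (adjusted p = 0.0135, 0.031 and 0.0232). TXNRD2 fell by 0.42 in 22RV1 and by 1.02 in DU145 cells, a difference of -0.59 (adjusted p = 0.005). SRXN1, which encodes sulfiredoxin and was chosen after its values were seen, rose by 3.26 in 22RV1 cells (adjusted p = 5.29e-06). Its response differed by -2.86 between the lines (adjusted p = 0.0007). The DU145 pairs of SRXN1 went opposite ways, from 5.59 to 14.3 CPM with the vector and from 21.5 to 15.7 CPM with PAGE4. Its 22RV1 PBS libraries held only 49 and 11 counts. NXN, also chosen after its values were seen, was the fourth, with a difference of -0.96 (adjusted p = 0.039). It fell by 0.64 in DU145 cells (adjusted p = 6.83e-05) and had only 11 to 34 counts in the 22RV1 libraries.

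Of 11 tested glucose-sensing regulators, 2 rose and 3 fell in 22RV1 cells, beside 32.1% of all genes called. In DU145 cells 6 rose and 4 fell, beside 41.9%, and 6 differed in response between the lines, beside 19.5%. Their median change was 0.01 for 22RV1 and 0.35 for DU145, beside -0.01 and -0.05 for all genes. MLXIP, the gene of MondoA, rose by 0.46 in DU145 cells (adjusted p = 0.000112), and its value in 22RV1 cells was 0.17 (adjusted p = 0.115). The difference of 0.29 did not pass (adjusted p = 0.0804). MLX had -0.10 in 22RV1 and -0.04 in DU145 cells, neither past the test. MYC, a growth-promoting factor that binds E-box sites, fell by 0.99 in 22RV1 cells (adjusted p = 9.54e-07) and rose by 0.43 in DU145 cells (adjusted p = 0.00296), a difference of 1.42 (adjusted p = 1.86e-06). MXD1, an antagonist of MYC, rose by 1.45 over both lines, while MXD3 fell by 1.91 and MNT fell by 0.52 (adjusted p = 0.0102, 0.000882 and 0.0143). MXD1 rose by 0.82 in 22RV1 and by 2.1 in DU145 cells, a difference of 1.28 (adjusted p = 7.38e-05). Beside MYC and MXD1, the genes that differed were MXD4 (-1.49), MLXIPL (-0.96), MGA (0.75) and MAX (0.48), and these were chosen after their values were seen.

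**Figure D4:**
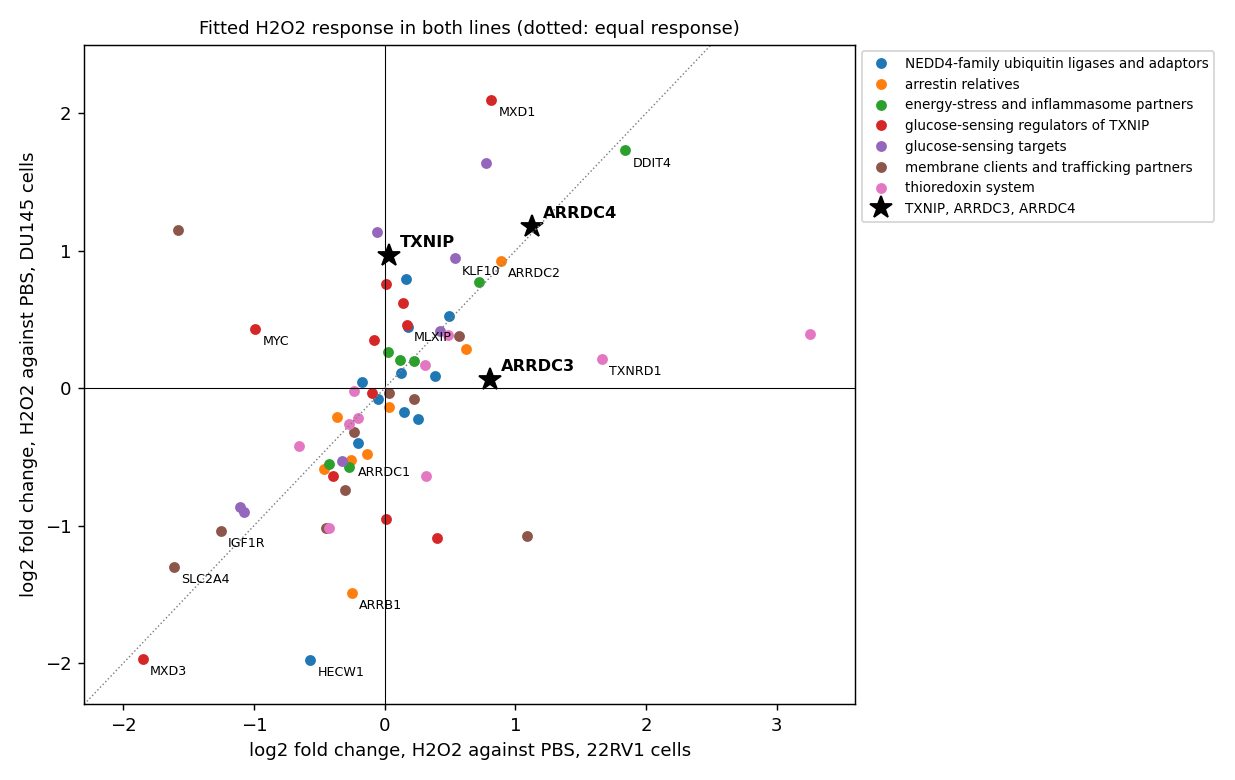
Fitted log2 fold change for H2O2 against PBS in 22RV1 cells (horizontal axis) and DU145 cells (vertical axis) for the 3 arrestins (stars) and the tested genes of 7 related lists (colours), with a dotted line at equal response. TXNIP lies above the line (0.03 and 0.96), ARRDC3 below it (0.80 and 0.06) and ARRDC4 near it (1.13 and 1.17).

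Of 7 tested glucose-sensing targets, 2 rose and 3 fell over both lines, beside 23% of all genes called. Their median was 0.42, beside -0.04 for all genes. KLF10, a transcriptional repressor that MondoA and ChREBP induce, had 28.0 and 49.5 CPM in 22RV1 vector cells with PBS and H2O2 and 28.2 and 51.3 CPM in DU145 vector cells. With PAGE4 it had 30.1 and 35.6 CPM in 22RV1 cells, a smaller rise, and 28.3 and 57.6 CPM in DU145 cells. It rose by 0.74 (adjusted p = 0.0115, edgeR). The lipogenic enzymes ACACA and FASN each fell by 0.99 (adjusted p = 0.00109 and 0.00221). In this list only HK2, a hexokinase chosen after its values were seen, differed between the lines past the test (1.20, adjusted p = 8.74e-07).

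Among the NEDD4-family ligases and adaptors, 1 of 11 rose and 2 fell over both lines, near the 23% of all genes called. Their median was 0, beside -0.04 for all genes. SMURF1 rose by 0.51 (adjusted p = 0.00805). NEDD4L fell by 0.30 (adjusted p = 0.0498), close to the threshold. HECW1 fell by 1.46 (adjusted p = 0.0195) and had 0.234 to 1.67 CPM in 22RV1 cells. ITCH, the ligase that marks TXNIP for degradation, rose by 0.44 in DU145 cells (adjusted p = 0.000675), and its value in 22RV1 cells was 0.18 (adjusted p = 0.15). The difference of 0.26 did not pass (adjusted p = 0.177).

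Of the membrane clients and trafficking partners, 1 of 10 rose and 3 fell over both lines, beside 23% of all genes called. Their median was -0.28, beside -0.04 for all genes. SLC2A1, the gene of GLUT1, had 82.7 to 112 CPM in 22RV1 cells and 120 to 155 CPM in DU145 cells, and its H2O2 change of 0.07 did not pass the test (adjusted p = 0.696). The insulin-responsive transporter SLC2A4 fell by 1.45 (adjusted p = 0.0067) at 1.01 to 5.96 CPM. IGF1R fell by 1.13 (adjusted p = 0.0014) and INSR by 0.52 (adjusted p = 0.0261). ITGB4, whose product is an ARRDC3 client and which was chosen after its values were seen, differed in response between the lines by -2.17 (adjusted p = 4.44e-05). Its level in 22RV1 cells was low, with 0.829 and 2.52 CPM in vector cells with PBS and H2O2. The 22RV1 PAGE4 libraries had 0.971 and 1.27 CPM of it.

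Of the 7 tested energy-stress and inflammasome partners, 2 rose and 2 fell over both lines, beside 23% of all genes called. Their median was 0.16, beside -0.04 for all genes. DDIT4, an inhibitor of mTORC1 whose product binds TXNIP, rose by 1.79 (adjusted p = 0.00124, edgeR). PRKAB1, a subunit of AMPK, rose by 0.74 (adjusted p = 0.0026), and USP5 fell by 0.49 (adjusted p = 0.00701). The inflammasome genes NLRP3, CASP1 and IL1B did not pass the filter on low counts.

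The genes whose log2 CPM was most like that of each arrestin over the 8 libraries were found among 11008 genes. PPM1E (Pearson r = 0.9978), TAMM41 (0.9957) and WHSC1L1 (0.9947) were nearest to TXNIP, and 21 genes exceeded 0.99. PPM1E, for example, had 34.2 to 36.4 CPM in 22RV1 cells and 12.2 to 16.9 CPM in DU145 cells, with its highest DU145 level in the PAGE4 library with H2O2. ITPKC (0.9922), CLDN15 (0.9902) and RAB21 (0.9896) were nearest to ARRDC4. TRIP12 (0.9638), FAM212B (0.9352) and C5orf45 (0.9324) were nearest to ARRDC3. Among the arrestins r was 0.855 for TXNIP with ARRDC4, 0.427 for ARRDC3 with ARRDC4 and 3.21e-05 for TXNIP with ARRDC3. These 8 points share libraries and are dominated by the difference between 2 lines for TXNIP, so they describe the patterns only.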

How the data were processed

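RNA of 22RV1 and DU145 cells was sequenced in 8 libraries. Per the labels and the study's methods, the authors aligned reads to GRCh38 with HISAT2 2.1.0 and deposited raw counts per gene from featureCounts 1.6.0, in 1 table per line. The labels name Trizol and the methods a column kit for RNA extraction. Genes and related lists were chosen with earlier results of these data known. Counts were joined by symbol, filtered with filterByExpr and tested with edgeR 4.0.16 in R 4.3.3, with TMM scaling, the quasi-likelihood test and Benjamini-Hochberg adjustment at 0.05. Pairs of libraries were blocks, which left 3 residual degrees of freedom for common effects and 2 for differences of effects and for effects within a line. The effects within a line share 1 estimate of spread over both lines. Single pairs were scaled with DESeq2 1.42.0 size factors within a line and given with a pseudocount of 0.5 and a limit of 1.5-fold. Their exact 95% intervals cover counting error only. Shares of all genes past that limit used a floor of 10 on the mean normalized count over the line's libraries. Named related genes were a fixed set and, per list, up to 3 called genes with the largest H2O2 change. Likeness used genes averaging 100 or more normalized counts per line. Lengths came from GENCODE 44. Alternatives were other scalings, no filter, DESeq2's Wald test, additive terms and leaving out each pair. The edgeR script was tested on simulated data.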

Additional observations from a re-analysis of the deposited data

Results flagged for a closer look

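The H2O2 response of TXNIP differed between the cell lines by 0.93 on the log2 scale (DU145 minus 22RV1, adjusted p = 0.0014 by edgeR's quasi-likelihood test). A difference in response was called for 19.5% of all genes. The fitted change was 0.96 in DU145 and 0.03 in 22RV1 cells. The log2 ratios were 0.53 and 1.47 in the DU145 pairs and -0.04 and 0.11 in the 22RV1 pairs. DESeq2's Wald test did not call the difference (0.96, adjusted p = 0.131). Without the DU145 PAGE4 pair the difference was 0.46 (adjusted p = 0.0862).

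The response of ARRDC3 differed in the other direction, by -0.75 (adjusted p = 0.00262). The fitted change was 0.06 in DU145 and 0.80 in 22RV1 cells. The log2 ratios were -0.13 and 0.34 in the DU145 pairs and 0.94 and 0.67 in the 22RV1 pairs. Without the DU145 vector pair the difference was -0.51 (adjusted p = 0.1).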

How the results depend on the processing

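Leaving out each pair of libraries left the calls of ARRDC4 for H2O2 (1.07 to 1.21) and of TXNIP and ARRDC4 between the lines (-3.49 to -3.06 and -1.57 to -1.35) past the threshold. The leave-out fits for single lines and for differences were added after seeing the data, and a lone pair was assumed to vary like the others. Their ranges for H2O2 were 0.17 to 0.68 for TXNIP and 0.29 to 0.63 for ARRDC3 over both lines, -0.08 to 0.10 for TXNIP in 22RV1 and -0.17 to 0.29 for ARRDC3 in DU145 cells. The differences between lines ranged over 0.46 to 1.39 for TXNIP, -0.98 to -0.51 for ARRDC3 and -0.19 to 0.27 for ARRDC4. The differences between constructs ranged over -0.09 to 1.24 for TXNIP and -0.43 to 0.63 for ARRDC3. The PAGE4 effects ranged over -0.19 to 0.04 for ARRDC4, -0.18 to 0.05 for ARRDC3 in 22RV1 cells, and in DU145 cells -0.11 to 0.82 for TXNIP, -0.37 to 0.09 for ARRDC3 and -0.06 to 0.40 for ARRDC4. The PAGE4 effect on TXNIP in DU145 cells was called when a 22RV1 pair was left out, which changes no DU145 library. With a lone DU145 pair kept, it was 0.82 without the PBS pair and -0.11 without the H2O2 pair. The PAGE4 differences between lines ranged over -0.30 to 0.63 for TXNIP and -0.29 to 0.17 for ARRDC3. ARRDC3 between the lines ranged over -0.18 to 0.19.

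Counts of genes called ranged over 1931 to 3902 for H2O2, 3699 to 6045 in 22RV1 cells, 5169 to 9185 in DU145 cells, 2041 to 4223 for their difference, 0 to 1 for the construct difference, 9 to 40 for PAGE4, 12 to 351 for PAGE4 in DU145 cells and 192 to 1210 for the PAGE4 difference.

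Without the filter, TXNIP and ARRDC3 passed for H2O2 (0.46 and 0.42), TXNIP passed for PAGE4 (0.28) and in DU145 cells (0.39), TXNIP in 22RV1 cells turned to -0.02, and the calls were 1 for the construct difference, 483 for PAGE4 against 27, 217 in DU145 cells against 64 and 806 for the PAGE4 difference against 493. DESeq2's Wald test gave 0.96 for the TXNIP line difference, no longer called, and 89 genes for PAGE4, and additive terms gave 3. Total counts turned the ARRDC4 line difference in response to -0.01 and ARRDC3 between lines to -0.18. They moved the median of all genes to 0.108 for H2O2 in 22RV1 cells, against -0.005, and to -0.268 between lines, against -0.066. A 2-fold limit left 4 values for H2O2 and 0 for PAGE4. For each, the cause was not tested.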
